A study of Mus musculus with 6 samples.

Results

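F-box proteins and cullins are the substrate receptors and the scaffolds of the largest class of ubiquitin ligases. The genes were taken from the deposited count table by symbol: the protein-coding Fbxl, Fbxw and Fbxo genes and the cullins, together with Skp1, Skp2, Rbx1, Btrc and Ccnf. Fbxl5, the iron-sensing F-box gene, was left out. This gave 73 genes, out of 24794 listed, comprising 63 F-box genes, 8 cullins, Skp1 and Rbx1.

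The cells were Lewis lung carcinoma (LLC) cells, a mouse tumour line that grows in C57BL/6 hosts. Cells given miR-291-3 mimics, double-stranded RNAs that stand in for the natural microRNA, made up 3 libraries, and cells given a control mimic another 3. The series' design text names the microRNA as miR-291a-3p and asks about its functions when overexpressed in this line. The mimic's dose, the time after transfection and the level of the microRNA reached were not given in the sources used here, and the table of polyadenylated RNA does not measure the mimic. Whether replicate libraries stem from separate cultures is unstated in the labels, so p-values measure spread among the libraries alone, possibly of technical origin.

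The mimic libraries held 25376993 to 29058948 counts and the control libraries 28318155 to 32963986. Of the markers of lung epithelium fixed for the check, Krt8 was high, at 552 ± 8.98 CPM in mimic and 493 ± 7.41 CPM in control libraries (CPM, counts scaled to library size with TMM factors, SD, n = 3 each). Epcam and Cdh1 averaged at most 0.0837 CPM in either group and Sftpc, Scgb1a1 and Krt19 had no row in the table, so that Krt8 and, at a low level, Krt18 were the epithelial markers seen. The 8 leukocyte markers with a row summed to 10.8 to 11.8 CPM in mimic and 17.4 to 19.8 CPM in control libraries. Most of it was Cd14 (6.31 CPM in mimic and 9.62 CPM in control libraries) and Lyz2 (2.78 and 5.52 CPM). Ptprc was at 0 in every mimic library and in control libraries 1 and 3, and at 0.139 CPM in control library 2. The 4 endothelial markers with a row summed to at most 1.05 CPM in a mimic and 0.714 CPM in a control library. The 6 fibroblast markers with a row summed to 451 to 469.6 CPM in mimic and 571 to 609 CPM in control libraries, nearly all of it Col3a1 and Pdgfra. These fell (log2 changes -0.37 and -0.58), while Lum rose, from 0.718 CPM in control to 1.74 CPM in mimic libraries (adjusted p = 2.01e-05, edgeR). Col1a2 did not pass (0.50), and Col1a1, not tested, had 0.882, 3.76 and 0.105 CPM in mimic and at most 0.149 CPM in control libraries. The part of these differences in the results was not tested.

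A cullin is a long curved scaffold. In the SCF ligase, CUL1 holds the adaptor SKP1 at one end and the RING protein RBX1 at the other. SKP1 binds the F-box of one of many receptors, whose WD40 repeats (FBXW), leucine-rich repeats (FBXL) or other domains (FBXO) grip a substrate that is often phosphorylated first, and RBX1 brings the E2 enzyme that carries ubiquitin. Through SKP2, FBXW7, beta-TrCP, cyclin F and EMI1 this family times the destruction of cyclins, of inhibitors of cyclin-dependent kinases and of replication factors. A microRNA pairs through its seed, bases 2 to 8, with sites in the 3' UTRs of mRNAs, and pairing usually lowers the mRNA.

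The sequences below show the seed and the 3' UTR sites on which the description of the members turns. The mature mouse microRNA, from RefSeq on GRCm38.p6, is encoded at chr7:3218968-3218989 on the plus strand, and capitals mark its seed. In the sites, capitals mark the match to the seed and the lower-case letters are the bases before it. An 8mer matches bases 2 to 8 and has an A opposite base 1, a 7mer-m8 matches bases 2 to 8, and a 7mer-A1 matches bases 2 to 7 with the A. Sites were sought in the longest annotated 3' UTR of each gene in GENCODE M21 on GRCm38, while the deposited counts rest on GRCm39. Coordinates are those of the capitals, and each site is exonic and in the 3' UTR.
miR-291a-3p: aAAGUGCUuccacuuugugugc
Fbxo28 8mer, chr1:182314886-182314893, minus strand: gtctgataaagtggcttttctgAGCACTTA
Fbxo10 7mer-A1, chr4:45035647-45035653, minus strand: ttggagtgtttctagtcactccgGCACTTA
Fbxo10 7mer-m8, chr4:45035523-45035529, minus strand: atcagactcttctcagggaagagAGCACTT
Fbxo10 7mer-m8, chr4:45034810-45034816, minus strand: cctcctgctccctcaggacactgAGCACTT
Fbxl2 7mer-A1, chr9:113977343-113977349, minus strand: tgtctcttctaagtatgcagcagGCACTTA
Fbxl2 7mer-m8, chr9:113977089-113977095, minus strand: gtatagtttcactgagacggcctAGCACTT
Fbxl4 7mer-m8, chr4:22433906-22433912, plus strand: aagaatgctctctaaaatattacAGCACTT
Fbxo41 7mer-m8, chr6:85469691-85469697, minus strand: ccccacccaggcattgccatcccAGCACTT
Skp2 7mer-m8, chr15:9112445-9112451, minus strand: ttttgataacatatggtttttttAGCACTT
Cul3 7mer-m8, chr1:80266762-80266768, minus strand: gtgtttctgtagtgttgcttattAGCACTT
The sites of Fbxo10, Fbxl2, Fbxl4, Fbxo41 and Skp2 lie in mRNAs that fell in the mimic libraries, and those of Fbxo28 and Cul3 in mRNAs that did not pass and that rose. The sites printed are a selection with a larger part of fallen genes than the whole. Of all 17 tested genes with a 7-base or 8-base site, 8 fell, 2 rose and 7 did not pass. The last 16 bases of the Fbxo41 site occur in 2 of the 21037 3' UTRs searched, and those of each other site printed occur in 1.

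Of the 73 genes, 66 passed the filter on low counts and 7 did not. Fbxw10, Fbxw19, Fbxw22, Fbxo15, Fbxo43, Fbxo47 and Fbxl13 did not pass and stayed at or under 0.492 CPM in every library. Of the 66 tested genes 22 fell and 14 rose in the mimic libraries (edgeR quasi-likelihood fit, adjusted p under 0.05 by Benjamini-Hochberg over all 13779 genes tested). In bulk RNA, fewer cells that express a gene and less of its RNA per cell cannot be told apart. Over all genes tested, 24.8% fell and 24.3% rose, against 33.3% and 21.2% of these genes. The median log2 change of the 66 was -0.06, and that of all genes tested was -0.01. With a change of at least 1.2-fold as well, 13 fell (19.7%) and 4 rose (6.06%), where the background was 13.6% and 7.61%. Fbxo2, one of the risen genes, and Fbxo24, which did not pass the test, met the filter through the mimic libraries.

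The scaffolds and the receptors are given apart, a split drawn after the values were seen whose difference was not tested. Of the 10 core and cullin genes 6 rose and 2 fell, with a median log2 change of 0.14, and of the 56 F-box genes tested 8 rose and 20 fell, with a median of -0.07. By at least 1.2-fold as well, 0 core and cullin genes rose and 0 fell. Of the F-box genes 4 rose (7.14%) and 13 fell (23.2%) at this cut, where the background was 7.61% and 13.6%. The 2 fallen core and cullin genes, Cul1 and Cul4a, were 0 with DESeq2, with no filter, and without mimic replicate 1, mimic replicate 2 or control replicate 2, and 1 without mimic replicate 3 or control replicate 3. With total counts in place of TMM scaling 6 rose and 2 fell, and of the F-box genes 6 rose and 25 fell. By class of receptor, 7 of 17 tested FBXL genes fell and 2 rose, and 10 of 30 FBXO genes fell and 3 rose. Of 9 FBXW genes 3 fell and 3 rose. The fallen shares were 41.2%, 33.3% and 33.3%, where all genes tested had 24.8% fallen and 24.3% risen. The classes hold few genes, and differences between them or from all genes were not tested.

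**Figure D1:**
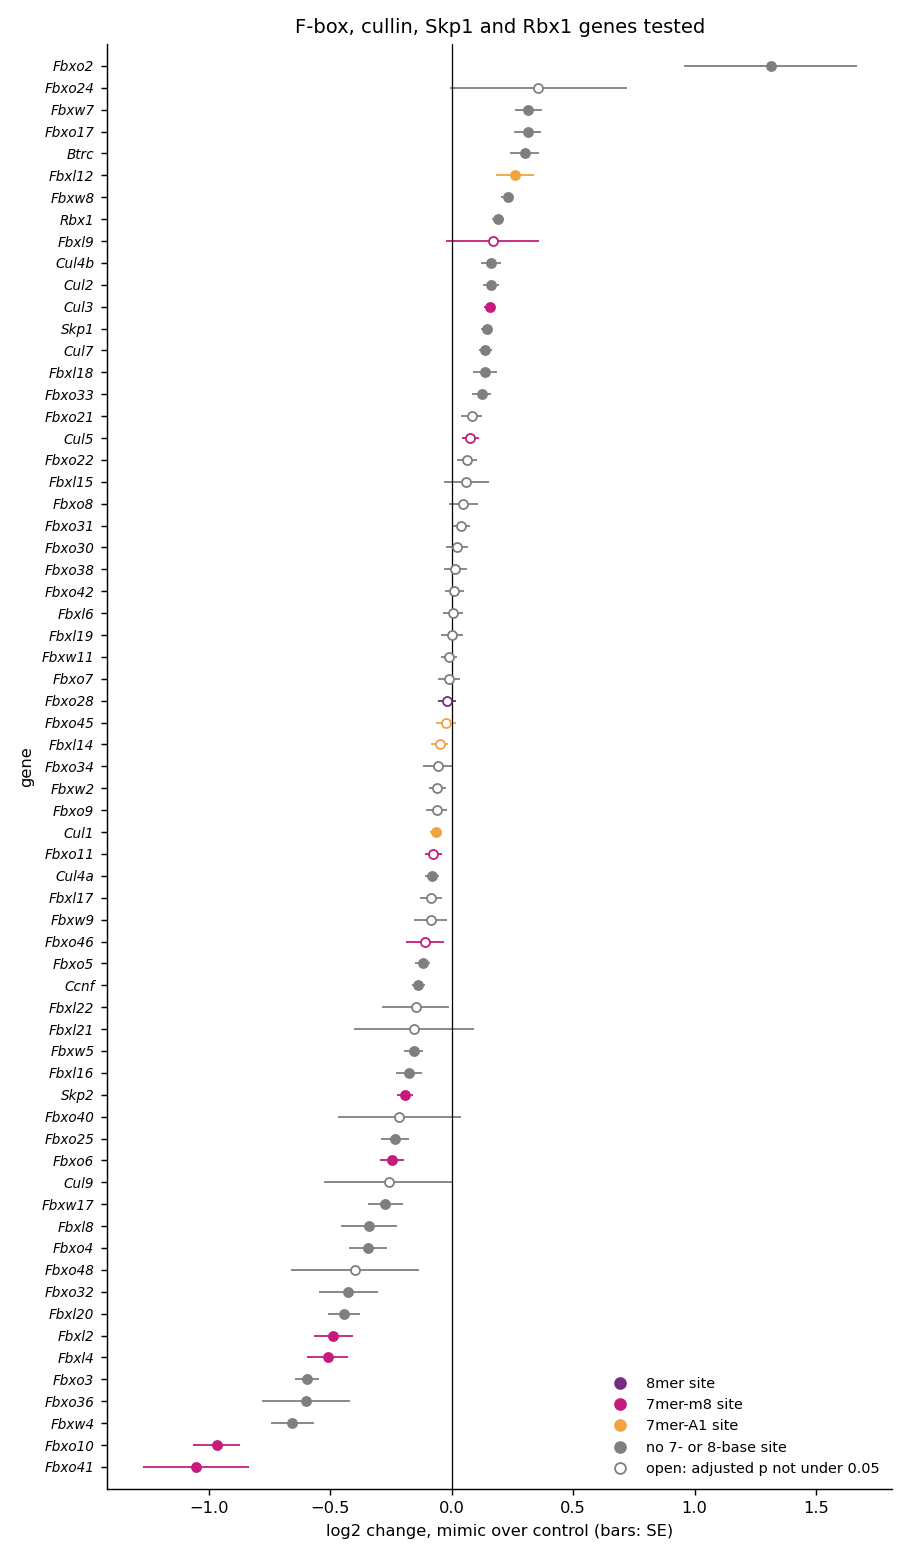
Log2 change (mimic over control, x axis) of 65 of the 66 tested genes (y axis), as the edgeR estimate with its SE. Filled points passed an adjusted p under 0.05 (21 below 0 and 14 above), colours give the best seed match in the 3' UTR, and the points lie between -1.05 (Fbxo41) and 1.31 (Fbxo2).

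Skp1 and Rbx1, the parts that SCF ligases share, were 10.5% and 14.1% more abundant in the mimic libraries, and Cul1 was slightly less abundant. Skp1 (ENSMUSG00000036309.15, chromosome 11), the adaptor for F-box proteins, had 346, 363 and 370.3 CPM in mimic libraries, against 321, 333 and 323 CPM in control libraries. All mimic values lay above all control values, a log2 change of 0.14 ± 0.023 (SE, adjusted p = 3.43e-06, edgeR). Rbx1 (ENSMUSG00000022400.10, chromosome 15), the RING subunit, had 156, 156 and 162 CPM in mimic and 140.5, 135 and 140.5 CPM in control libraries. Its groups did not overlap either, and it rose by 0.19 ± 0.026 on the log2 scale (adjusted p = 2.22e-07, edgeR). The processed pseudogene Rbx1-ps had 3, 4 and 5 counts in mimic and 1, 2 and 4 in control libraries.

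Cul1 (ENSMUSG00000029686.16, chromosome 6), the SCF scaffold, had 145, 144 and 146 CPM in mimic and 149, 152 and 155 CPM in control libraries. The mimic values were all lower, by 0.07 ± 0.024 on the log2 scale (adjusted p = 0.0236, edgeR). This call was lost without mimic replicate 1, 2 or 3 or control replicate 2 or 3 (adjusted p between 0.0579 and 0.115), with DESeq2 (adjusted p = 0.088) and with no filter (adjusted p = 0.118). The Cul1 3' UTR of 505 bases holds one 7mer-A1. Within each library the ratio of Cul1 to Skp1 counts was 0.42, 0.397 and 0.395 with the mimic and 0.465, 0.458 and 0.478 with the control. The ratio of Cul1 to Rbx1 counts was 0.931, 0.924 and 0.902 with the mimic and 1.06, 1.13 and 1.10 with the control. Neither ratio overlapped between the groups, and a ratio within a library does not depend on scaling, though it shows unequal change and not which gene changed. The exact permutation test, two-sided, gave p = 0.1 for each, the smallest that 3 libraries against 3 allow.

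The other cullins, each the scaffold of its own ligase class, rose in 4 of 7 cases and fell in 1. These are 57.1% risen and 14.3% fallen, where all genes tested had 24.3% and 24.8%. By at least 1.2-fold as well, 0 rose and 0 fell, where the background was 7.61% and 13.6%. Cul3 (ENSMUSG00000004364.15, chromosome 1), which works with BTB-domain receptors such as KEAP1, had 195, 195 and 194 CPM in mimic and 172, 178 and 174 CPM in control libraries. The groups were well apart, and Cul3 rose by 0.16 ± 0.023 (log2, SE, adjusted p = 7.72e-07, edgeR), and its 3' UTR holds the 7mer-m8 printed above. Cul2, the scaffold of the VHL ligase, had 63.8, 60.9 and 61.7 CPM in mimic and 54.9, 55.8 and 55.8 CPM in control libraries, without overlap (log2 change 0.16, adjusted p = 0.00018, edgeR). Cul7, which pairs with a single F-box protein, FBXW8, had 114, 111 and 112 CPM in mimic and 103, 102 and 102 CPM in control libraries (0.14, adjusted p = 5.77e-05, edgeR). Fbxw8 itself had 103, 106 and 103 CPM in mimic and 88.2, 88.6 and 89.2 CPM in control libraries. Both partners were thus higher in each mimic library, and Fbxw8 rose by 0.23 ± 0.028 (log2, adjusted p = 2.77e-08, edgeR). Annotated exons of the antisense gene Gm9754 overlap 1845 bases of Fbxw8 exons, and Gm9754 itself had 1.49 CPM in mimic and 1.72 CPM in control libraries. The strand setting of the counting is unstated, so reads of the pair cannot be told apart and the Fbxw8 value is uncertain.

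Cul4a and Cul4b, paralogs that both bind the adaptor DDB1, differed in direction. Cul4a had 82.6, 82.5 and 84.4 CPM in mimic and 87.1, 88.8 and 87.9 CPM in control libraries, all lower with the mimic. It fell by 0.08 ± 0.029 on the log2 scale (adjusted p = 0.0217, edgeR), a call lost without mimic replicate 1 or 2 or control replicate 2 (adjusted p between 0.0729 and 0.0862), with DESeq2 (0.0925) and with no filter (0.0942). Cul4b had 63, 60 and 59.1 CPM in mimic and 55.3, 57.8 and 49.8 CPM in control libraries. The groups did not overlap, and it rose by 0.16 ± 0.042 (log2, adjusted p = 0.00169, edgeR), a call lost with limma on log2(FPKM + 1) (adjusted p = 0.114). The ratio of Cul4a to Cul4b counts was 1.31, 1.37 and 1.43 with the mimic and 1.57, 1.54 and 1.76 with the control. It was lower in each mimic library (exact permutation test, two-sided, p = 0.1, the smallest possible).

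Cul5, which works with SOCS-box receptors, had 50.3, 50.6 and 49.8 CPM in mimic and 47.6, 47.7 and 47.6 CPM in control libraries. The groups did not overlap, but the log2 change of 0.08 ± 0.035 did not pass (adjusted p = 0.0752, edgeR). Cul9, a large cytoplasmic cullin that binds p53, was near the limit of detection with 0.802, 0.939 and 0.562 CPM in mimic and 1.03, 0.763 and 0.952 CPM in control libraries, and did not pass (adjusted p = 0.444). On the authors' FPKM scale, which corrects for length, the order of the cullins in mimic libraries was Cul3 (34.6 ± 0.502 FPKM), Cul1 (31.1 ± 0.08), Cul4b (13.6 ± 0.5), Cul7 (13.2 ± 0.175), Cul2 (12.8 ± 0.284), Cul4a (11.2 ± 0.0814), Cul5 (5.32 ± 0.095) and Cul9 (0.0567 ± 0.0153) (SD, n = 3 each). Cul4b and Cul7, and Cul7 and Cul2, were not separated beyond their SDs in mimic libraries. In control libraries Cul1 came first with 33.4 ± 0.588 FPKM and Cul3 second with 31.8 ± 0.61. Cul4b, Cul7, Cul4a and Cul2, at 12.5 ± 0.982, 12.2 ± 0.07, 12.2 ± 0.165 and 11.7 ± 0.132 FPKM in control libraries, lay within 1 FPKM of each other, and of these neighbours only Cul4a and Cul2 were separated by more than their SDs.

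**Figure D2:**
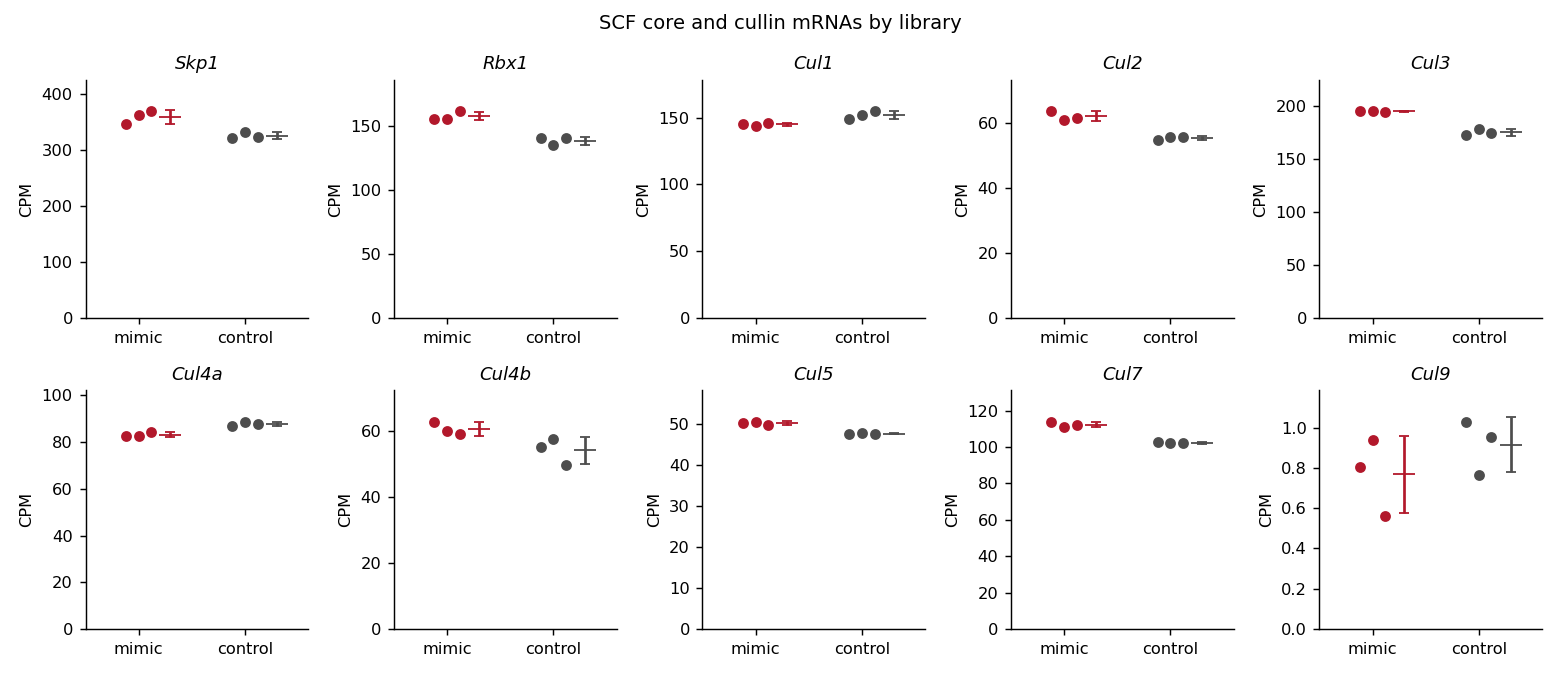
CPM (y axis, from 0) of Skp1, Rbx1 and the 8 cullins in each mimic library (left in each panel) and each control library (right), with the mean and SD of 3 beside the points. Skp1, Rbx1, Cul2, Cul3, Cul4b and Cul7 rose, Cul1 and Cul4a lie slightly lower with the mimic, and the groups overlap for Cul9.

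Of the 11 F-box genes in the cell cycle list, 5 fell, 3 rose and 3 did not pass. The risen share of 27.3% was near the 24.3% of all genes, and the fallen share was 45.5% against 24.8%. By at least 1.2-fold as well, 2 fell and 2 rose (18.2% each), where the background was 13.6% and 7.61%. Skp2 (ENSMUSG00000054115.13, chromosome 15), the receptor for the CDK inhibitor p27, had 56.1, 54.9 and 58.4 CPM in mimic and 65.7, 63.9 and 64.1 CPM in control libraries. Every mimic library was lower, and Skp2 fell by 0.19 ± 0.034 (log2, SE, adjusted p = 2.13e-05, edgeR). Its 7mer-m8 lies between bases 4406 and 4412 of its 4872-base 3' UTR. Ccnf, cyclin F, the founding F-box protein and a receptor for the ribonucleotide reductase subunit RRM2, had 103, 100.4 and 100.2 CPM in mimic and 111, 109 and 114 CPM in control libraries (log2 change -0.14, adjusted p = 0.000108, edgeR). Fbxo5, or EMI1, which inhibits the anaphase-promoting complex, had 68, 71.1 and 69.2 CPM in mimic and 77.9, 74.7 and 73.9 CPM in control libraries (log2 change -0.12, adjusted p = 0.00251, edgeR). For both genes the groups were close but did not overlap, and neither 3' UTR holds a 7-base or 8-base site.

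Fbxo4, described as a receptor for cyclin D1, had 10.3, 9.39 and 9.1 CPM in mimic and 12.3, 12.7 and 11.5 CPM in control libraries. It was lower in each mimic library, by 0.34 ± 0.078 on the log2 scale (adjusted p = 0.000467, edgeR), and holds no site. Fbxl2, a prenylated receptor for D-type cyclins, had 8.94, 7.8 and 8.5 CPM in mimic and 11.7, 12.2 and 11.5 CPM in control libraries. The 2 groups were well apart, and Fbxl2, with 2 sites, fell by 0.49 ± 0.08 (log2, adjusted p = 6.25e-06, edgeR). Annotated exons of Ubp1, on the opposite strand, overlap 496 bases of Fbxl2, and Ubp1 rose slightly, to 154 CPM in mimic against 141 CPM in control libraries (adjusted p = 5.78e-05, edgeR). With the strand setting unstated, the Fbxl2 value is uncertain.

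Fbxw7 and Btrc rose. Fbxw7 (ENSMUSG00000028086.16, chromosome 3), the receptor for cyclin E, MYC and NOTCH and a tumour suppressor, had 29.8, 31 and 27.2 CPM in mimic and 23.4, 25.2 and 22.2 CPM in control libraries. The lowest mimic value was above the highest control value, and the log2 change was 0.31 ± 0.055 (SE, adjusted p = 1.73e-05, edgeR). Btrc (beta-TrCP1) had 22.7, 23.8 and 22.4 CPM in mimic and 20.2, 18.4 and 17.5 CPM in control libraries, and rose by 0.30 ± 0.058 (log2, adjusted p = 7.34e-05, edgeR). Its paralog Fbxw11 (beta-TrCP2), which shares the substrates beta-catenin and I-kappa-B, had 79, 74.5 and 77.2 CPM in mimic and 76.3, 77.1 and 78.9 CPM in control libraries. The Fbxw11 groups overlapped fully and it did not pass (log2 change -0.01 ± 0.031, adjusted p = 0.803, edgeR). The ratio of Btrc to Fbxw11 counts was 0.288, 0.319 and 0.29 with the mimic and 0.265, 0.239 and 0.221 with the control, higher in each mimic library (exact permutation test, two-sided, p = 0.1, the smallest possible). Exons of the pseudogene Gm6807 on the opposite strand overlap 235 bases of Btrc. Gm6807 had 0.955 CPM in mimic and 0.512 CPM in control libraries (log2 change 0.90, adjusted p = 0.00934, edgeR). With the strand setting unstated, the Btrc value and this ratio carry that uncertainty.

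Fbxl12 had 12.1, 11.1 and 13.1 CPM in mimic and 10.7, 9.92 and 9.84 CPM in control libraries. It rose by 0.26 ± 0.079 (log2, adjusted p = 0.00688, edgeR), a call lost without mimic replicate 3 (adjusted p = 0.0588) and with limma on log2(FPKM + 0.1) (0.0519). The exons of Ubl5 on the opposite strand overlap 1890 bases of Fbxl12, Ubl5 had 114 CPM in mimic and 110.2 CPM in control libraries, and the strand setting of the counting is unstated in the sources used here, so that the Fbxl12 value is uncertain. Fbxo31, a receptor for cyclin D1 after DNA damage, had 58.6, 57.8 and 58.2 CPM in mimic and 56.8, 52.7 and 60.1 CPM in control libraries. Fbxo7, mutated in a form of human parkinsonism, had 30.8, 30 and 29.4 CPM in mimic and 31.1, 30 and 29.8 CPM in control libraries. Both overlapped between the groups, and neither log2 change (0.04 and -0.01) passed (adjusted p = 0.446 and 0.858, edgeR).

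The largest decreases were in F-box genes of other or little-known functions. Fbxo41 (ENSMUSG00000047013.16, chromosome 6), studied in neurons, had only 1.28, 0.867 and 1.02 CPM in mimic and 1.63, 2.15 and 2.74 CPM in control libraries. The groups did not overlap, and it fell by 1.05 ± 0.218 (log2, SE, adjusted p = 0.000154, edgeR). Fbxo10 (ENSMUSG00000048232.13, chromosome 4), whose human protein targets BCL2, had 7.54, 8.2 and 5.73 CPM in mimic and 14.8, 12.5 and 14.5 CPM in control libraries. The groups were far apart, a fall of 0.97 ± 0.096 (log2, adjusted p = 7.14e-10, edgeR), and Fbxo10 is the one member with 3 sites. Fbxw4, the gene disrupted in the dactylaplasia mouse, had 6.46, 6.47 and 6.92 CPM in mimic and 11.1, 9.99 and 10.2 CPM in control libraries. It fell by 0.66 ± 0.087 (log2, adjusted p = 1.78e-07, edgeR) and holds no seed match of 6 or more bases in its 3' UTR of 552 bases. Exons of Gm17018 on the opposite strand overlap 676 bases of Fbxw4, and Gm17018 had 24.3 CPM in mimic and 25 CPM in control libraries, so that the Fbxw4 value is uncertain too.

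Other F-box genes that fell by at least 1.2-fold are given as means. Fbxo3, whose human protein marks FBXL2 for degradation, had 21.6 ± 0.818 CPM in mimic and 32.5 ± 0.905 CPM in control libraries (SD, n = 3 each). Its log2 change of -0.59 had the smallest adjusted p of all the members (1.39e-11, edgeR), with no seed match of 6 or more bases in 3155 bases of 3' UTR. Fbxo3 and its target Fbxl2 were thus both lower in each mimic library. Exons of 4931422A03Rik on the opposite strand, which is not among the counted genes, overlap 190 bases of Fbxo3, so that the Fbxo3 value is uncertain too. Fbxl4, a mitochondrial protein that restrains mitophagy, had 6.93 ± 0.295 CPM in mimic and 9.87 ± 0.179 CPM in control libraries (log2 change -0.51, adjusted p = 8.55e-06, edgeR) and holds one 7mer-m8 in a 3' UTR of 361 bases. Fbxl20 averaged 12.5 ± 0.145 CPM in mimic and 17 ± 1.22 CPM in control libraries (-0.44), and Fbxo36 averaged 1.51 ± 0.148 CPM in mimic and 2.29 ± 0.256 CPM in control libraries (-0.60). Fbxo32, the atrogin-1 of wasting muscle, averaged 3.58 ± 0.293 CPM in mimic and 4.82 ± 0.36 CPM in control libraries (-0.43), and Fbxw17 averaged 13 ± 0.354 CPM in mimic and 15.7 ± 1.58 CPM in control libraries (-0.27). None of these last 4 holds a 7-base or 8-base site. Fbxl8 (-0.34, adjusted p = 0.0146, edgeR) overlapped between the groups and lost its call without mimic replicate 3, control replicate 1 or control replicate 3 (adjusted p between 0.0518 and 0.131) and with DESeq2 (0.0602).

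Fbxo28, with the 8mer printed above, had 49.8, 51.9 and 48.7 CPM in mimic and 52.3, 51 and 49.3 CPM in control libraries. Its groups overlapped, and the log2 change of -0.02 ± 0.037 did not pass (adjusted p = 0.683, edgeR). Fbxl21 was low, with 0.922, 1.16 and 0.808 CPM in mimic and 1.33, 1.04 and 0.862 CPM in control libraries, and did not pass (adjusted p = 0.639, edgeR).

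Among the receptors that bind glycans through an FBA domain, 3 were tested. Fbxo6 had 28.1, 28.8 and 30.6 CPM in mimic and 36.6, 31.9 and 35.3 CPM in control libraries and fell by 0.25 ± 0.05 (log2, adjusted p = 0.000138, edgeR), with a 7mer-m8 between bases 27 and 33 of its short 3' UTR. Fbxo17 had 23.5, 24.7 and 25.3 CPM in mimic and 19.2, 19.3 and 20.6 CPM in control libraries and rose by 0.31 ± 0.054 (log2, adjusted p = 1.48e-05, edgeR). For both the groups did not overlap. Fbxo2, which is abundant in neurons, had 17, 19 and 19 counts in mimic and 12, 8 and 5 counts in control libraries, or 0.678 ± 0.00992 CPM in mimic and 0.275 ± 0.125 CPM in control libraries (SD, n = 3 each). It passed the filter on low counts through the mimic libraries, so that its rise (1.31 on the log2 scale) is given as a description.

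**Figure D3:**
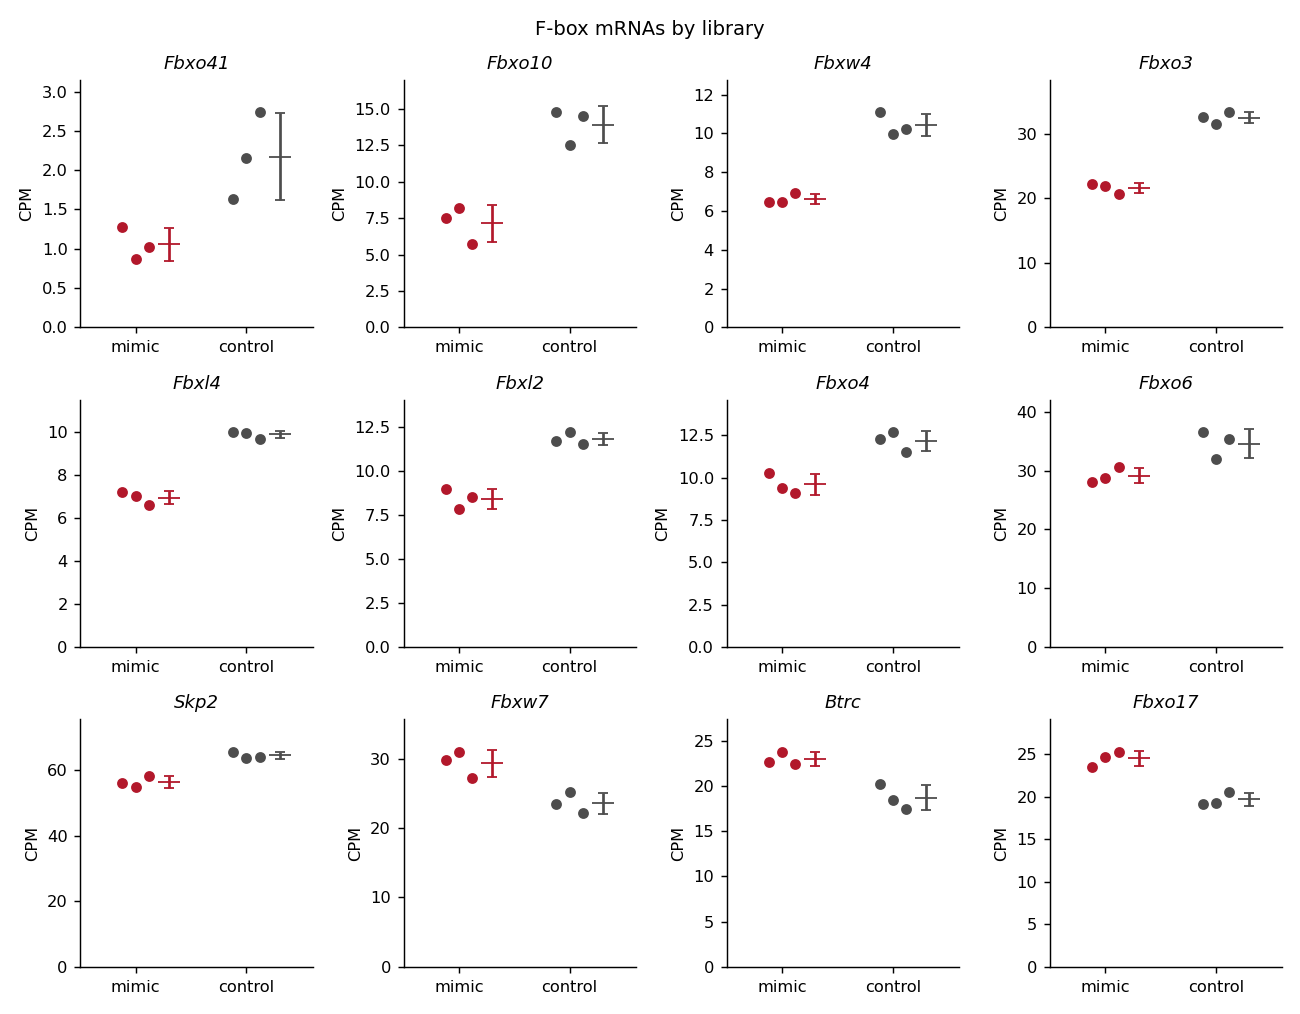
CPM (y axis, from 0) of 12 F-box genes in each mimic library (left in each panel) and each control library (right), with the mean and SD of 3 beside the points. Fbxo41 to Skp2 are lower in every mimic library, Fbxw7, Btrc and Fbxo17 higher, and the groups of Fbxo10 are far apart.

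The remaining called genes changed less. Fbxo25 (-0.23), Fbxl16 (-0.17) and Fbxw5 (-0.16) fell on the log2 scale, and Fbxl18 (0.14) and Fbxo33 (0.12) rose. The Fbxl16 call was lost without mimic replicate 3 (adjusted p = 0.0623, edgeR) or control replicate 2 (0.123). The Fbxl18 call was lost without mimic replicate 3 (0.0503) or control replicate 3 (0.103), and the Fbxo33 call without mimic replicate 1 (0.0753). With total counts only, neither Fbxl18 (adjusted p = 0.196, edgeR) nor Fbxo33 (0.174) passed, nor did either with limma on log2(FPKM + 1) (0.22 and 0.116). Fbxl18 also did not pass with DESeq2 (adjusted p = 0.079). Of the 30 genes that did not pass, 23 had at least 7 CPM in control libraries, and their log2 changes lay between -0.11 and 0.08. Among these 23 were Fbxo22, a receptor for KDM4 demethylases and BACH1 (0.06), Fbxo11, a receptor for BCL6 (-0.08), and Fbxo38, which acts on PD-1 in T cells (0.01). Fbxo11 passed with total counts only (adjusted p = 0.00224), with at least 2 CPM in 3 libraries (0.0463) and without mimic replicate 2 (0.0211, edgeR).

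Per length, Fbxo5 had the highest level of the F-box genes in both groups, and the rest of the sum was spread over many genes. The FPKM of the 63 F-box genes summed to 317, 318 and 311 in mimic and 339, 337 and 336 in control libraries, lower in each mimic library. Skp1 had 141 ± 4.73 FPKM in mimic and 131 ± 3.09 FPKM in control libraries. Fbxo5 took the largest share of the F-box sum, 9.51% ± 0.255 with the mimic and 9.9% ± 0.228 with the control (SD, n = 3 each). Fbxl6, of little-known function, took 5.11% ± 0.133 with the mimic and 4.87% ± 0.145 with the control, and Fbxw11 took 4.88% ± 0.128 with the mimic and 4.7% ± 0.0948 with the control. Fbxw8 took 5.17% ± 0.0852 with the mimic and 4.22% ± 0.0412 with the control, below Fbxl6 and Fbxw11 in each control library. With the mimic its share and that of Fbxl6 did not differ beyond their spread.

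The family was then split by whether the 3' UTR holds a seed match, beside the same split of all genes. Of the 66 tested genes 17 (25.8%) hold a 7-base or 8-base site, against 20.9% of the 11559 tested protein-coding genes with an annotated 3' UTR. Of these 17, 8 fell and 2 rose (Cul3 and Fbxl12), and of the 49 without a site 14 fell and 12 rose. In all genes 38.6% of those with a site fell and 18.1% rose, against 24.6% and 29.8% of those without, so that the 47.1% fallen among the 17 is to be read against 38.6%. Median log2 changes were -0.08 with and -0.01 without a site in the family, and -0.07 with and 0.01 without in all genes. The 3 members with 2 or more sites, Fbxo10 and Fbxl2 among them, had a median of -0.49, the 14 with 1 site -0.06 and the 49 with none -0.01. In all genes these medians were -0.09, -0.06 and 0.01. Genes with a site had longer 3' UTRs, with a median of 2233 bases against 1021 bases in the family, and 2457 against 923 bases in all genes. With 3' UTRs taken instead from the longest coding transcript, 14 members held a site, 8 fell and 1 rose, with a median of -0.15.

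**Figure D4:**
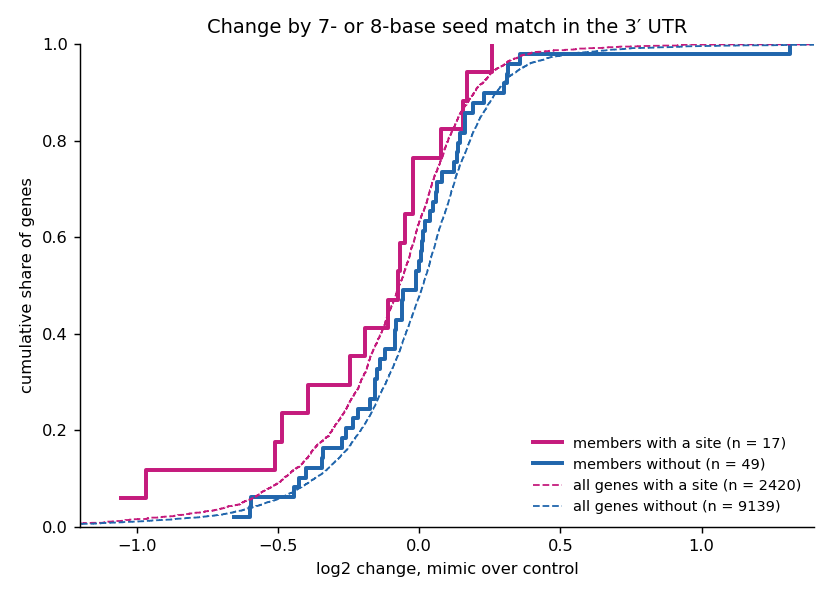
Cumulative share of genes (y axis) by log2 change (mimic over control, x axis), for the 17 family members with a 7-base or 8-base site and the 49 without (thick lines) and for the 2420 tested genes with and 9139 without (dashed). The curve of members with a site lies left of that of members without over most of its range, as it does for all genes.

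Proteins that switch cullin ligases on and off had mRNAs that rose or did not pass. Among the 24 genes of NEDD8 conjugation, exchange factors and E2 enzymes, 11 rose and 0 fell (edgeR; 0 also at an unadjusted p under 0.05, and 0 with DESeq2 or limma on log2(FPKM + 1)), with a median log2 change of 0.09. These are 45.8% risen and 0% fallen, where all genes tested had 24.3% and 24.8%. The risen count depended on scaling: 8 rose with total counts only and 13 with DESeq2 size factors within edgeR, and 0 fell with either. Most of the rises were small: by at least 1.2-fold as well, 2 rose (8.33%) and 0 fell. The background at this cut was 7.61% risen and 13.6% fallen, so the risen share was near that of all genes. Cdc34, the E2 enzyme that extends ubiquitin chains on SCF substrates, rose to 195 ± 3.06 CPM in mimic against 146 ± 3.4 CPM in control libraries (log2 change 0.41, adjusted p = 4.76e-15, edgeR). Ube2d3, an E2 enzyme that adds the first ubiquitin, rose by 0.18, Ube2f, the NEDD8 E2 enzyme for CUL5, by 0.25, and Dcun1d5, a NEDD8 ligase cofactor, by 0.22. Of the 10 subunits of the COP9 signalosome, which removes NEDD8 from cullins, 6 rose and 0 fell (edgeR; 0 also at an unadjusted p under 0.05 and with DESeq2, 1 with limma on log2(FPKM + 1)). The risen share was 60.0%, where that of all genes was 24.3%, and with total counts only 6 rose and 1 fell. Cops2 (0.24), Cops8 (0.20), Cops7b (0.27) and Cops6 (0.17) rose (log2 changes), and the median of the 10 was 0.15.

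Of 38 tested receptors and adaptors of the other cullins, 13 rose and 9 fell (8 and 13 with total counts only), with a median of 0.02. The fallen share of 23.7% was near the 24.8% of all genes, and the risen share was 34.2% against 24.3%. By at least 1.2-fold as well, 4 rose (10.5%) and 2 fell (5.26%), where the background was 7.61% and 13.6%. Ddb1, the adaptor of CUL4 ligases, rose to 1136 ± 16.1 CPM in mimic against 925 ± 3.34 CPM in control libraries (log2 change 0.30, adjusted p = 7.46e-15, edgeR). Fem1b and Klhdc3, receptors of CUL2 ligases, rose by 0.36 and 0.27, while Dcaf7, a WD40 protein of CUL4 ligases, fell by 0.22 on the log2 scale. In the anaphase-promoting complex, which carries a cullin-like subunit of its own, 5 of 18 genes rose and 8 fell (3 and 8 with total counts only, and 3 risen without control replicate 2). The risen share of 27.8% was near the 24.3% of all genes, and the fallen share was 44.4% against 24.8%. Most of these changes were small: by at least 1.2-fold as well, 1 fell (5.56%) and 0 rose, where the background was 13.6% and 7.61%. The E2 enzyme gene of the complex, Ube2c, fell by 0.23, and Anapc7, Anapc11 and Anapc2, the cullin-like subunit, fell by 0.29, 0.19 and 0.19.

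**Figure D5:**
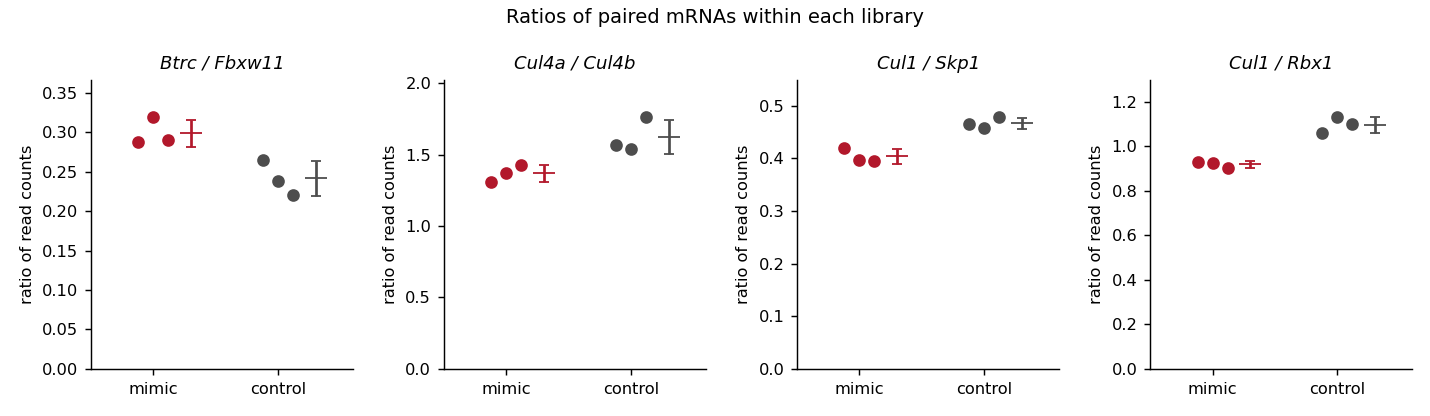
Ratio of the counts of 2 genes in each library (y axis, from 0), for each mimic library (left) and each control library (right), with the mean and SD of 3. The Btrc to Fbxw11 ratio is higher and the ratios of Cul4a to Cul4b, Cul1 to Skp1 and Cul1 to Rbx1 are lower in every mimic library.

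The list of known SCF substrates was compared at the mRNA level, and the proteins were not measured. Of 39 tested, 20 fell and 10 rose (26 and 6 with total counts only), with a median of -0.14. The fallen share was 51.3%, where all genes had 24.8%, and the risen share of 25.6% was near the 24.3% of all genes. By at least 1.2-fold as well, 13 fell (33.3%) and 3 rose (7.69%), where the background was 13.6% and 7.61%. The substrate genes with the smallest adjusted p were Myc, a target of FBXW7 and SKP2, which rose by 0.39, and Rbl2, Cdkn1a and Rrm2, which fell by 1.09, 1.12 and 0.30 on the log2 scale. Some receptor and substrate pairs are given here after their values were seen. They are a selection from the list, whose other genes changed in either direction. Skp2 fell and so did its substrate gene Cdkn1b, which encodes p27, to 39 ± 1.42 CPM in mimic against 51.8 ± 1.2 CPM in control libraries (log2 change -0.41, adjusted p = 2.17e-10, edgeR). Ccnf fell and so did its substrate gene Rrm2. Beside the rise of Fbxw7, Notch1 fell by 0.52. Of the cyclin E genes Ccne2 fell by 0.13 (adjusted p = 0.00786, edgeR) and Ccne1 did not pass (-0.06, adjusted p = 0.229, edgeR). Myc, the target of both FBXW7 and SKP2 named above, rose by 0.39, opposite in direction to Notch1 and Cdkn1b. Beside the rise of Btrc, Ctnnb1, which encodes beta-catenin, rose by 0.10, and Nfkbia, which encodes I-kappa-B alpha, did not pass (-0.03, adjusted p = 0.457, edgeR). Nfkbib, which encodes I-kappa-B beta, rose by 0.36 (log2, adjusted p = 1.39e-06, edgeR).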

How the data were processed

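Polyadenylated RNA of LLC cells was sequenced as strand-specific paired-end libraries, per the labels' protocols. HISAT2, DESeq2 and the build GRCm39 are named, with no version, in the submitters' processing notes. No counting tool, strand setting or annotation release was stated in the sources used here. Exons of Fbxl20, Cul1 and Fbxo32 also overlap those of another annotated gene, by 674, 192 and 186 bases, so their values carry some uncertainty as well. The same holds for Cul5, Fbxo7, Fbxo22 and Fbxo11 (110, 314, 368 and 34 bases) and for some other members. The overlaps of Fbxl20 and of Fbxo24 with Pcolce (112 bases) lie on the same strand. Pcolce had 522 CPM in mimic and 695 CPM in control libraries. Deposited by the authors were whole-number read counts for 24794 genes and FPKM values, rounded to 2 decimals, for 24494 genes. Libraries were grouped by title.

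The count test was edgeR 4.0.16 under R 4.3.3 (filterByExpr, TMM, estimateDisp, glmQLFit, glmQLFTest, Benjamini-Hochberg over 13779 genes, threshold 0.05). The SE is the log2 change divided by the square root of F. Genes removed by the filter held up to 0.071% of the counts in a library. Libraries of a group differed by more than sampling noise (mean chi-square per gene 1.84 to 2.23). The excess was small: the common coefficient of variation that edgeR estimated between libraries of a group was 2.02%. With so little spread, small changes pass the threshold. In simulated data for mimic against control (13657 genes tested), 58.2% of genes changed 1.2-fold, 72.7% changed 1.5-fold and 95.5% changed 2-fold were recovered, and 16 of 13458 unchanged genes were called. The simulation changed only 67, 66 and 66 genes by these folds, while 49.1% of genes were called in the data. The adjusted p depends on the share of changed genes, so these rates do not give the sensitivity of the test on the data. Alternatives were DESeq2 1.42.0, limma 3.58.1 on log2(FPKM + 1) and log2(FPKM + 0.1), other scalings and filters, leaving out each library, a replicate block, and a threshold of 0.01. A log2(FPKM + pseudocount) scale understates the change of low genes.

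The members and lists were chosen with earlier results of these data known. Library values were given for the core, the cullins, the cell cycle and glycan-binding receptors, Fbxl21, genes with an 8mer and the largest changes, up to 30 genes, and up to 4 called genes of each pathway list by smallest adjusted p. The values of 1 member are in the counts and medians but are not reported here.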

Additional observations from a re-analysis of the deposited data

How the results depend on the processing

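Of the 22 fallen and 14 risen genes, 17 and 9 kept their call and direction in all 15 alternatives. Fbxo41 and Fbxo2 kept theirs in 14 and were not tested with at least 2 CPM in 3 libraries. The rise of Fbxo2 remains a description, because it met the filter through the mimic libraries. None changed direction with a call, and sign changes occurred only among genes not called in either fit. Over the alternatives 19 to 27 members fell and 10 to 14 rose. The median log2 change of the tested members (-0.06) was -0.11 with total counts only, -0.09 with limma on log2(FPKM + 0.1), -0.05 with no filter and between -0.05 and -0.04 without any single library. The members with a site (median -0.08) had -0.13 with total counts only and -0.15 with 3' UTRs from the longest coding transcript. Of the core and cullin genes, the 2 that fell were 0 with DESeq2, with no filter and with an adjusted p under 0.01, and 0 to 2 without any single library. The 8 risen F-box genes were 5 with limma on log2(FPKM + 0.1). With total counts only or limma on either FPKM scale, 1 COP9 gene fell in place of 0, and 3 in place of 5 genes of the anaphase-promoting complex and 6 in place of 10 substrate genes rose. Adaptors of other cullins rose in 8 cases with total counts only and 6 with limma on either scale, in place of 13. Genes of the anaphase-promoting complex that rose numbered 3 to 5 without any single library. The causes were not tested.

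Same-numbered libraries did not deviate together (r = 0.02, 0.075 and 0.055 across genes), so the numbers were not taken as pairs, although each library correlated best with its own number. With the replicate number as a block 22 members fell and 14 rose, as without it. At this depth genes under about 1 CPM, such as Cul9 and Fbxl21, could show only large changes.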
